A study of Mus musculus with 6 samples.

Results

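The 7 MHC class II genes H2-Aa, H2-Ab1, H2-Eb1, H2-DMa, H2-DMb1, Cd74 and Ciita were followed in RNA-seq of undifferentiated spermatogonia (A_undiff) sorted from adult mouse testes. They were chosen by name as the classical class II chains, their peptide-loading partners and the regulator of the pathway, and they are 7 of the 53657 gene names in the count files. All 7 passed the filter on low counts that left 19656 genes for testing. The series compared 3 WT and 3 MUT samples and holds no other group. Every mouse carried Gfra1-creERT2, a tamoxifen-dependent Cre recombinase made where the GDNF receptor gene Gfra1 is active, and a tdTomato reporter that Cre switches on. MUT mice were also heterozygous for the FR-Hras G12V allele, from which Cre gives a hyperactive HRAS, the small GTPase of the growth factor pathway. WT mice were littermates without that allele. All had received tamoxifen 3 months before the cells were taken, and tdTomato+, MCAM-bright cells were collected by flow cytometry. The mice were of a mixed C57BL/6J, 129/Sv and Swiss Black background. Recombination of the reporter and of Hras are separate events. The study checked the G12V base in the sequencing reads of these samples. From its share of the reads it inferred that most of the sorted MUT cells carried the mutation. Gene counts, the values used here, do not show which allele was transcribed. The labels do not tie replicates to litters, and p-values measure the spread between these 6 samples.

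MHC class II molecules display peptides from the endosomal pathway to CD4+ T cells. H2-Aa and H2-Ab1 encode the alpha and beta chains of I-A, and H2-Eb1 encodes the beta chain of I-E. Cd74, the invariant chain, fills the peptide groove of new class II molecules and guides them to endosomes, where H2-DMa and H2-DMb1 together form the DM complex that exchanges its last fragment for peptide. Ciita is the coactivator that switches the whole set on. It binds no DNA itself but docks on factors at the promoters, RFX on the X box and NF-Y on the Y box. In most tissues the set is active in macrophages, dendritic cells and B cells, and testicular macrophages lie close to the tubules that hold A_undiff.

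The X and Y boxes are shown because they are what the class II genes share in sequence and what Ciita acts through. The windows searched were the 250 bases before to 50 bases after each annotated start, from RefSeq on GRCm38.p6, in which 4 of the 7 members have an entry. The X box core was searched as CTAGNAAC and the Y box core as GATTGG, on both strands; on one strand these letters cannot overlap each other. Below are the 120 bases before the start of H2-Aa (chr17:34287824-34287943, minus strand), of H2-Eb1 (chr17:34305747-34305866, plus strand) and, for comparison, of H2-Ob (chr17:34238785-34238904, plus strand), a class II chain gene of low count in these samples. All are written 5′ to 3′ on the gene's strand, with motif matches on either strand in capitals.
H2-Aa: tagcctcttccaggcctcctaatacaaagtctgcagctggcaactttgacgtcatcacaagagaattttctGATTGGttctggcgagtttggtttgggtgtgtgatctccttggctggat
H2-Eb1: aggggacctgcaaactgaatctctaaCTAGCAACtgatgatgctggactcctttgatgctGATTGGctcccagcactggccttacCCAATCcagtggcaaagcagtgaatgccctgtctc
H2-Ob: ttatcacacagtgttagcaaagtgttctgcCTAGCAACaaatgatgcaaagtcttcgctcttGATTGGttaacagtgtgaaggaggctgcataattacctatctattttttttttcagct

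H2-Eb1 held an X match 34 bases ahead of a Y match, and a further Y match on the opposite strand. In H2-Ob the distance from X to Y was 32 bases. H2-DMb1 held the X match CTAGTAAC 35 bases ahead of its Y match, at a start inside the gene as counted. H2-Aa held a Y match and no match to the X letters. The windows of H2-DMa start far upstream of its counted exons and were not used. Over all 32851 windows, 3.62% held CTAGNAAC and 16.1% held GATTGG on either strand. An X match followed within 60 bases by a Y match on the gene's strand stood in 8 windows (0.0244%), of 7 genes. Of these, 3 were class II chain genes (H2-Eb1, H2-DMb1, H2-Ob) and the other 4 were Dnmt1, Mark3, Net1 and Prdm4. The letters were chosen from the known class II boxes, so the matches describe these promoters.

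Class II transcripts were abundant in all 6 sorted samples. The members took between 0.0812% and 0.195% of all counts, in libraries of 22729292 to 23550433 counts. Per length of exon, Cd74 stood at 486 ± 105 RPKM in WT (SD, n = 3), which placed its mean over all samples at rank 25 of the tested genes. H2-Eb1 stood at 199 ± 49.4 RPKM, H2-Aa at 163 ± 38.8 RPKM and H2-Ab1 at 141 ± 30.8 RPKM in WT. Those 3 chain genes kept that order within each of the 6 samples, although their WT ranges overlapped. The DM genes were lower by an order of magnitude, at 13.8 ± 2.57 RPKM for H2-DMa and 6.94 ± 1.84 RPKM for H2-DMb1 in WT. Ciita was the lowest, at 0.800 ± 0.0641 RPKM in WT and 0.649 ± 0.261 RPKM in MUT, above 20.9% of the tested genes by its mean over all samples.

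**Figure D1:**
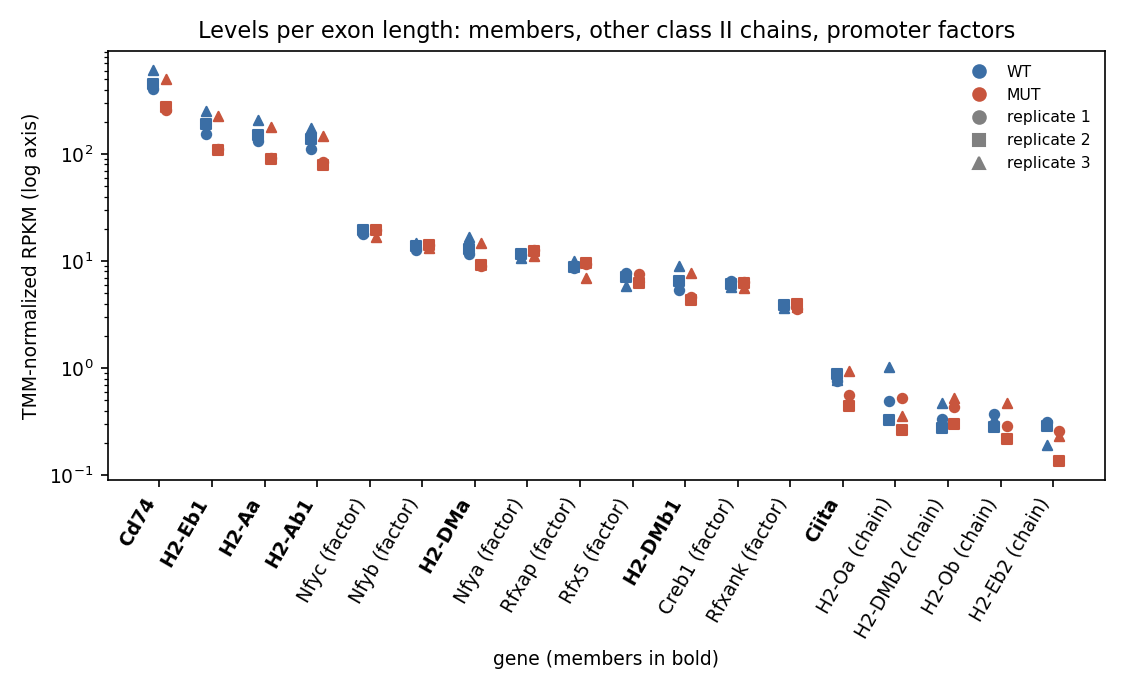
Each point is the TMM-normalized RPKM of a gene in one sample (log axis), for the 7 members in bold, the other class II chain genes with counts and the factors that bind class II promoters, ordered by mean. Cd74, H2-Eb1, H2-Aa and H2-Ab1 lie above every factor, while the mean of Ciita lies below that of every factor and above those of the other chain genes.

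The first question was whether class II transcripts differed between WT and MUT. In CPM scaled by edgeR's TMM factors, Cd74 was 573, 629 and 853 in WT 1, 2 and 3 and 364, 386 and 707 in MUT 1, 2 and 3. MUT 1 and MUT 2 lay below every WT sample and MUT 3 lay above WT 1 and WT 2, so the groups overlapped. H2-Aa, the I-A alpha chain, was 246, 284 and 387 CPM in WT and 171, 169 and 335 CPM in MUT. H2-Ab1, its partner, was 184, 226 and 284 CPM in WT and 137, 129 and 242 CPM in MUT. H2-Eb1 was 182, 227 and 298 CPM in WT and 132, 129 and 270 CPM in MUT. These 3 chain genes showed the arrangement of Cd74, with MUT 1 and MUT 2 close together at the bottom and replicate 3 highest in each group.

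The DM genes followed at lower counts. H2-DMa was 19.1, 21.5 and 27.3 CPM in WT and 14.9, 15.1 and 24.0 CPM in MUT. H2-DMb1 was 7.95, 9.66 and 13.3 CPM in WT and 6.82, 6.42 and 11.5 CPM in MUT. Both again had MUT 1 and MUT 2 below all WT samples and MUT 3 inside the WT range. Ciita departed from this order, with 7.21, 8.33 and 7.35 CPM in WT and 5.38, 4.21 and 8.98 CPM in MUT. Its highest value was that of MUT 3, and its 3 WT values lay close together. Ciita rested on 97 to 210 counts a sample. In the reference annotation its exons overlap those of Dexi on the opposite strand, and counting ignored strand, so reads of these genes there cannot be told apart. Dexi differed by 0.09 on the log2 scale (SE 0.09). The exons of Cd74 likewise overlap the microRNA gene Mir5107, on the same strand. Mir5107 differed by -0.28 on the log2 scale (SE 0.38).

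**Figure D2:**
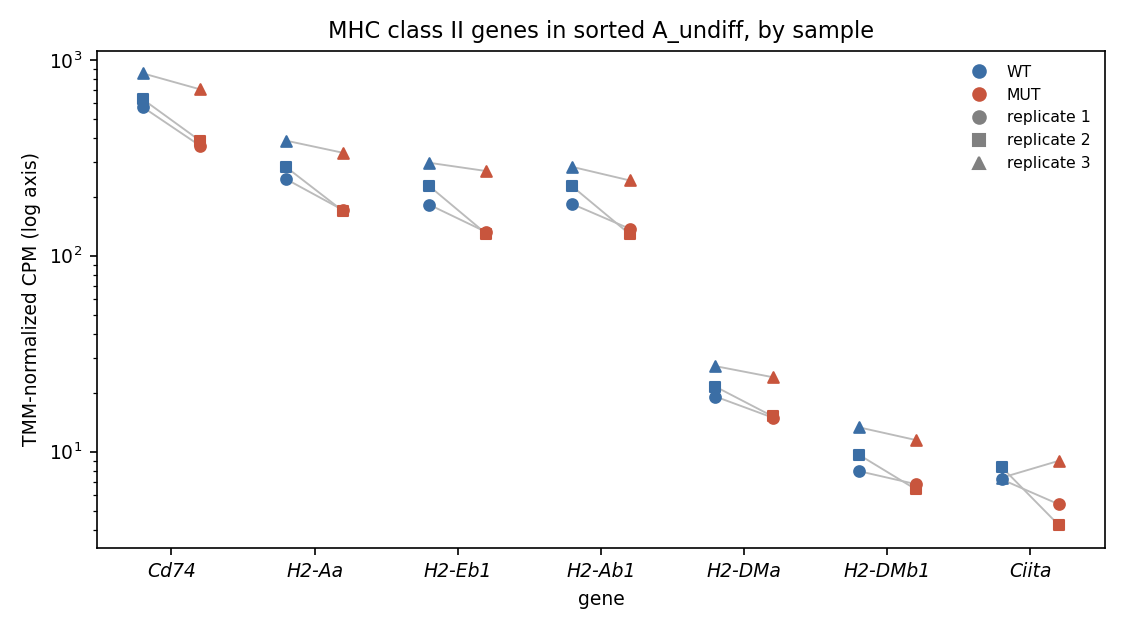
TMM-normalized CPM of the 7 members in each sample (log axis), WT in blue and MUT in red, with grey lines joining samples of the same replicate number. In 6 genes MUT 1 and MUT 2 lie below all WT samples, MUT 3 lies inside the WT range and each line slopes down; in Ciita the line of replicate 3 slopes up.

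No member passed the test at a false discovery rate of 0.1 in the genotype-only fit (edgeR quasi-likelihood test with Benjamini-Hochberg adjustment), in which 2 of 19656 genes (0.0102%) passed. The log2 fold change of MUT against WT was -0.50 (SE 0.26, unadjusted p = 0.0879) for Cd74, the largest of the 7 in size. It was -0.44 (SE 0.27) for H2-Aa, -0.45 (SE 0.25) for H2-Ab1 and -0.41 (SE 0.29) for H2-Eb1. For the DM genes it was -0.33 (SE 0.21) for H2-DMa and -0.32 (SE 0.27) for H2-DMb1, and for Ciita it was -0.30 (SE 0.26). The adjusted p was 0.998 for each of the 7 in edgeR. On the linear scale the 95% interval of the MUT to WT ratio of Cd74 ran from 0.472 to 1.07 and so included 1. In the exact two-sided permutation test over the 20 assignments of samples, whose smallest p is 0.1, p was 0.3 for 5 members, 0.5 for H2-DMb1 and 0.4 for Ciita.

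All 7 fitted values were below 0, beside 48.2% of all tested genes, and the median of the 7 was -0.41, beside 0.01 over all tested genes. The members move together across samples, so their directions are not separate observations. For none of the 7 were the groups without overlap, a state that 7.69% of tested genes reached. None of the 7 had an unadjusted p under 0.05 with lower counts in MUT, beside 1.44% of tested genes. DESeq2 with genotype only also called no member, with 0.0241% of its tested genes called.

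The replicate numbers of the labels were also used to pair samples, because samples of the same number deviated together from their group means over the expressed genes. That correlation was weak (r = 0.304, 0.156 and 0.395 in pairs 1 to 3), and it was not computed for samples of different number. The labels do not say what the numbers mark, so the paired values rest on an inferred pairing. MUT was lower than the WT sample of the same number in all 3 pairs for 6 members, beside 13.0% of tested genes, and in 2 of 3 pairs for Ciita. For Cd74 the MUT level was 0.635, 0.614 and 0.829 times that of WT in pairs 1, 2 and 3. For H2-Aa the ratios were 0.693, 0.595 and 0.866. Those of Ciita were 0.746, 0.505 and 1.22. Pair 3 had the ratio nearest to or above 1 in each of the 7 genes.

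When the replicate number entered the model as a block, the edgeR estimate for Cd74 was -0.54 (SE 0.10), with an unadjusted p of 0.000256 and an adjusted p of 0.193, so it did not pass. In the same edgeR fit the adjusted p was 0.223 for H2-Aa, 0.232 for H2-Ab1, 0.251 for H2-Eb1, 0.424 for H2-DMa, 0.706 for H2-DMb1 and 0.875 for Ciita. That fit called 0.0661% of tested genes and no member. Its unadjusted p was under 0.05 with lower MUT counts for 6 of the 7, beside 4.71% of tested genes. DESeq2 with the same block called 4 members lower in MUT at the false discovery rate of 0.1, where it called 0.323% of its tested genes. Its adjusted p was 0.000958 for Cd74, 0.0184 for H2-Aa, 0.0322 for H2-Ab1 and 0.0607 for H2-Eb1. The same fit also called 8 of 12 late spermatid genes lower in MUT, a list described further on. Without both samples of replicate 1, or of replicate 2, the DESeq2 fit with the block called 0 members, while its log2 fold change for Cd74 was -0.49 and -0.47, against -0.54 with all samples. Without those of replicate 3 it called 3, which were Cd74, H2-Aa and H2-Eb1.

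**Figure D3:**
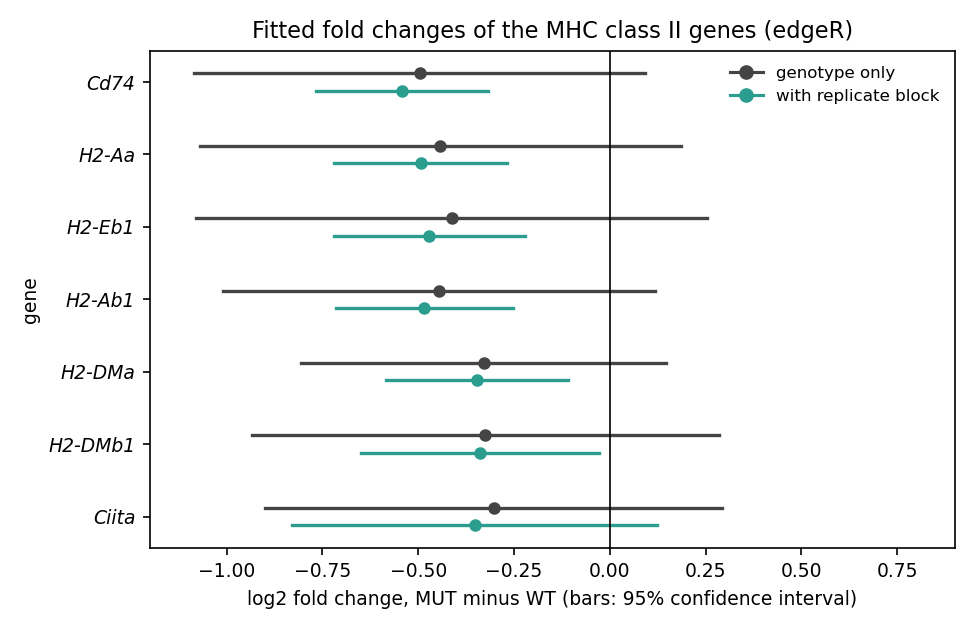
Points are edgeR log2 fold changes of MUT minus WT for each member and bars their 95% confidence intervals, from the genotype-only fit in dark grey and from the fit with the replicate block in green. All 7 grey intervals cross 0, and 6 of the green ones, all but that of Ciita, lie below 0 before adjustment for the number of genes tested.

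Summed over the 7 genes, the level was 1220, 1405 and 1870 CPM in WT and 831, 839 and 1599 CPM in MUT. The group means were 1498 ± 335 CPM in WT and 1090 ± 441 CPM in MUT (SD, n = 3 each), a ratio of 0.727. Without MUT 3 the ratio was 0.557. Between the highest and the lowest of the 6 samples the sum differed 2.25-fold. In bulk RNA of sorted cells, fewer cells of a type and less RNA per cell cannot be told apart.

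The proportions of the chain and DM genes to Cd74 varied less than their levels, which was not clear for Ciita. For each 1000 counts of Cd74 there were 429 to 474 of H2-Aa over the 6 samples, a range of 1.10-fold. The range was 320 to 377 for H2-Ab1, the I-A beta chain, and 318 to 383 for H2-Eb1, the I-E beta chain. For the DM genes it was 32.0 to 40.9 for H2-DMa and 13.9 to 18.7 for H2-DMb1. The H2-DMb1 proportion was 14.9 ± 0.939 in WT and 17.2 ± 1.35 in MUT (SD, n = 3 each), without overlap between groups, and p was 0.1 in the exact permutation test, the smallest it can give. In the same test p was 0.2 to 0.6 for the proportions of the other members to Cd74. These p-values were not adjusted for the number of proportions, so the H2-DMb1 value is a description. Ciita had the widest range among the members, from 8.62 to 14.8 for each 1000 of Cd74 (1.71-fold). Over the 6 samples, Pearson's r of log2 CPM was 0.961 to 0.998 for the 15 pairs among the 6 members other than Ciita, and 0.794 to 0.866 for Ciita with each of them. These correlations share the same 6 libraries and the same scaling.

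**Figure D4:**
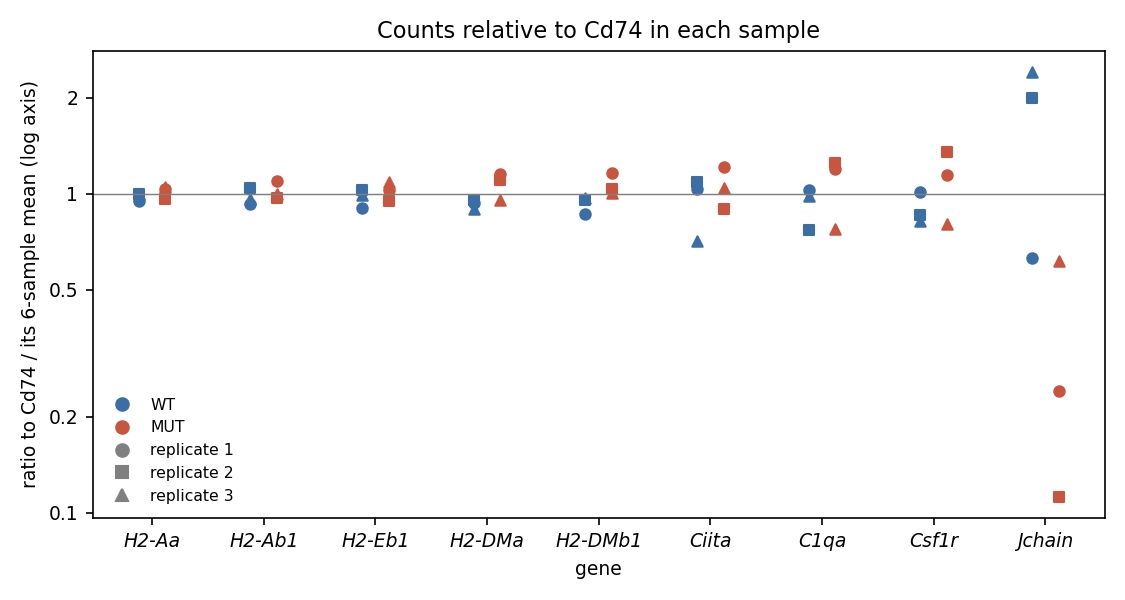
Counts of each gene per count of Cd74 in each sample, divided by the mean of the 6 samples (log axis). The chain genes H2-Aa, H2-Ab1 and H2-Eb1 stay close to 1 in all samples. The member Ciita (1.71-fold) and the macrophage genes C1qa (1.62-fold) and Csf1r (1.68-fold) spread wider. Jchain of plasma cells spreads 21.4-fold with the MUT samples at or below the WT samples.

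The remaining class II chain genes were near the limit of detection. H2-Ea-ps, the alpha chain gene of I-E that is annotated as a pseudogene, had 0 counts in all 6 libraries, which allows up to 0.131 CPM in a library. H2-Eb2, H2-DMb2, H2-Oa and H2-Ob had between 7 and 35 counts in each library. H2-Oa and H2-Ob encode DO, the inhibitor of DM in B cells, so the DM genes were measured at a far higher count than those of their inhibitor. None of these 4 had an unadjusted p under 0.05, and none was lower in MUT in all 3 pairs. H2-Eb2 and H2-DMb2 have close copies in H2-Eb1 and H2-DMb1, and reads that map to several places were not counted, which can lower the counts of both copies.

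The summed level of the factors that bind class II promoters varied little between samples. The list held Rfx5, Rfxap and Rfxank of the RFX complex, Nfya, Nfyb and Nfyc of NF-Y, and Creb1. Of these 7 genes none passed the test or had an unadjusted p under 0.05, with or without the block, and 4 had fitted values below 0, with a median of 0.00. Rfx5 had 769 to 977 counts, and its log2 fold change was 0.01 (SE 0.12). Their summed level was 357 to 372 CPM in WT and 345 to 386 CPM in MUT. Single factors varied more, and Rfxap ran from 15.6 CPM in MUT 3 to 22.6 CPM in WT 3. Nfya was higher in MUT in all 3 pairs (log2 fold change 0.09, SE 0.07), and 0 of the 7 were lower in all 3. Pearson's r of log2 CPM with the mean of the members ran from -0.947 (Nfya) to -0.0608 (Nfyb).

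Interferon gamma is the classical inducer of Ciita outside professional antigen-presenting cells. Its gene Ifng had 0 counts in 5 libraries and 1 count in MUT 3. The receptor genes Ifngr1 and Ifngr2, the kinases Jak1 and Jak2 and the targets Irf1, Socs1 and Gbp2 were all counted in every library, and of the 8 tested genes of this list none passed the test or had an unadjusted p under 0.05.

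Of 7 tested genes of class II proteolysis and turnover, all had fitted values below 0, with a median of -0.14, and none passed the test. With the block, 1 of them, Ctss, had an unadjusted p under 0.05. Ctss, cathepsin S, which trims the invariant chain in antigen-presenting cells, had 2293, 1836 and 3645 counts in WT and 1613, 2156 and 1974 counts in MUT. Its highest sample was WT 3, as for Cd74, but MUT 3 lay below MUT 2, unlike Cd74. Its log2 fold change was -0.42 (SE 0.22). Ctsl, Ctsb, Ctsd, Lgmn and Ifi30 had at least 1171 counts in each library and fitted values between -0.16 and -0.02. March1, the ubiquitin ligase that removes class II from the surface, had 77 to 132 counts.

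Of the 4 co-stimulation genes none passed the test and 3 had fitted values below 0. Cd80, a ligand of CD28 on T cells, had 42, 26 and 39 counts in WT and 17, 13 and 28 counts in MUT. MUT 3 was the only MUT sample within the WT range. Its log2 fold change was -0.87 (SE 0.34, unadjusted p = 0.0309, adjusted p = 0.998 in edgeR). Cd86, the other CD28 ligand, had 168 to 291 counts in WT and 136 to 220 in MUT.

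The label of the samples was checked against marker genes. The 10 markers of undifferentiated spermatogonia all passed the filter, with a summed level of 3447 to 4042 CPM in WT and 3581 to 4055 CPM in MUT. Of the 10, 1 had an unadjusted p under 0.05, Lin28a, an RNA-binding protein of undifferentiated spermatogonia. It had 8024, 8071 and 7669 counts in WT and 9834, 9407 and 8967 counts in MUT, without overlap (log2 fold change 0.26, SE 0.08; adjusted p = 0.998 in edgeR). The receptor genes Gfra1 and Ret had at least 2387 and 6526 counts in each library. Markers of macrophages were present as well. All 14 passed the filter, with a summed level of 1074 to 1740 CPM in WT and 940 to 1193 CPM in MUT, and the complement gene C1qa had 2374 to 4705 counts. None of the 14 passed the test, 13 had fitted values below 0 with a median of -0.29, and 8 had an unadjusted p under 0.05 with lower MUT counts in the fit with the block. The summed level of the macrophage list was highest in WT 3 (1740 CPM). In pair 2 it was 1.05 times as high in MUT as in WT, at 1127 against 1074 CPM, while that of the members was 0.597 times as high. Lyz2 alone was at 283 CPM in MUT 2 and 235 CPM in WT 2, so this sum leans on that gene. Of the 14 macrophage genes, 8 were lower in MUT in all 3 pairs and 0 were higher in all 3. For each 1000 counts of Cd74 there were 182 to 296 counts of C1qa (1.62-fold) and 285 to 479 of Csf1r, the receptor that macrophages depend on (1.68-fold). For Adgre1, another gene of the macrophage list, there were 63.7 to 94.2 (1.48-fold), and the member Ciita ranged 1.71-fold. Over the 14 macrophage genes, Pearson's r of log2 CPM with the mean of the members ran from 0.245 (Cd163) to 0.938 (Fcgr1). The 8 genes of all leukocytes passed the filter at 206 to 309 CPM in WT and 180 to 222 CPM in MUT, and 5 of them had an unadjusted p under 0.05 with lower MUT counts under the block. The part of these cells in the class II values was not tested.

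Markers of other antigen-presenting cells differed widely in level. Of 10 dendritic cell markers 8 passed the filter, at a summed level of 64.1 to 71.3 CPM in WT and 60.3 to 71.5 CPM in MUT, and none had an unadjusted p under 0.05. Xcr1 and Clec9a, markers of cross-presenting dendritic cells, had 1 to 12 counts a library. Zbtb46 had 645 to 752 counts and Clec10a, which some macrophages also express, had 367 to 581. All 8 B cell markers passed, at a summed level of 12.8 to 18.0 CPM in WT and 12.6 to 14.8 CPM in MUT. Among T cell genes 4 of 7 passed, and Cd3g had 0 counts in 4 libraries and 2 and 3 in the others. Cd4, a gene of T cells and also of some macrophages, had 171, 194 and 262 counts in WT and 146, 150 and 154 counts in MUT, without overlap (log2 fold change -0.46, SE 0.17; adjusted p = 0.998 in edgeR).

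The largest fitted difference in size among the marker genes was that of a plasma cell gene. Jchain, which joins immunoglobulin units, had 280, 996 and 1651 counts in WT and 68, 34 and 345 counts in MUT. MUT 3 lay above WT 1, so the groups overlapped, although every pair was lower in MUT. Its log2 fold change was -2.69 (SE 0.82, adjusted p = 0.998) in the genotype-only edgeR fit and -2.86 (adjusted p = 0.0257) with the block, where it passed. Like Cd74, Jchain was highest in WT 3, but for each 1000 counts of Cd74 it ranged from 3.82 to 81.8 counts. Mzb1, a chaperone of antibody-secreting cells, had 12, 13 and 20 counts in WT and 7, 8 and 9 counts in MUT, without overlap (log2 fold change -0.88, SE 0.34; adjusted p = 0.998 in edgeR). Sdc1, at 0.16 (SE 0.11), and Xbp1, at -0.03 (SE 0.07), had fitted values nearer to 0, and the 6 genes summed to 134 to 191 CPM in WT and 133 to 138 CPM in MUT.

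Markers of the somatic cells of the testis ordered the samples in other ways. Leydig cell genes summed to 13.2 to 21.1 CPM in WT and 12.9 to 67.3 CPM in MUT, the highest value being that of MUT 3. In that sample Cyp17a1, an enzyme of androgen synthesis, had 505 counts, beside 8 to 91 in the others. Sertoli cell genes summed to 65.1 to 151 CPM in WT and 95.6 to 130 CPM in MUT. Among them Wt1 and Gata4 were higher in MUT without overlap, while the groups overlapped for the others. The log2 fold change was 0.36 (SE 0.15, unadjusted p = 0.0428, adjusted p = 0.998 in edgeR) for Wt1 and 0.19 (SE 0.13) for Gata4. Endothelial genes summed to 53.0 to 61.1 CPM in WT and 55.4 to 61.9 CPM in MUT, and peritubular myoid genes to 7.91 to 9.68 CPM in WT and 9.15 to 12.8 CPM in MUT.

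**Figure D5:**
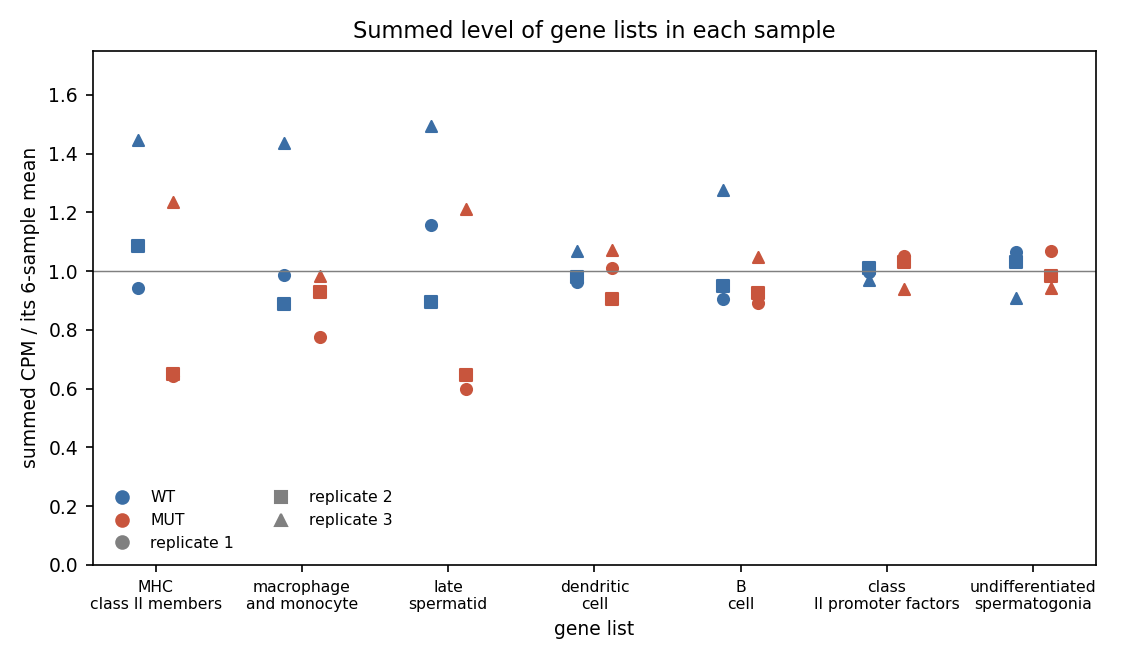
Summed CPM of gene lists in each sample, divided by the mean of the 6 samples. The class II members, macrophage genes and late spermatid genes are each highest in WT 3, MUT 1 and MUT 2 are the lowest samples for the members and the late spermatid genes, and the promoter factors and spermatogonial markers stay near 1.

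The genes whose pattern over the 6 samples was most like the members were sought by Pearson's r of log2 CPM with the mean log2 CPM of the 7, as a description over 6 libraries that share one scaling. The 10 highest were Sun3, RP23-311O20.2, 4931403G20Rik, Ankrd61, Txndc8, Col19a1, Eqtn, Pdlim2, RP24-63G23.2 and RP24-130L14.1, with r from 0.991 to 0.996. In all, 354 genes (1.80%) had r above 0.95. The 10 had between 10 and 375 counts in each library. Sun3, a nuclear envelope protein of spermatids, had 77, 88 and 120 counts in WT and 55, 54 and 102 counts in MUT. Txndc8, a thioredoxin of spermatids, had 109, 130 and 216 counts in WT and 73, 65 and 177 counts in MUT. Eqtn, an acrosomal membrane protein, had 168, 189 and 247 counts in WT and 116, 123 and 214 counts in MUT. Each of these 3 placed MUT 1 and MUT 2 at the bottom and replicate 3 at the top of its group, as Cd74 did.

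Because several of these are spermatid genes, a list of 12 late spermatid genes was added after the values were seen. All 12 passed the filter, and none passed the test in the genotype-only edgeR fit. All had fitted values below 0, with a median of -0.51, and 11 were lower in MUT in all 3 pairs. With the block, 11 had an unadjusted p under 0.05 with lower MUT counts, edgeR called 1 (Tnp1, adjusted p = 0.0794) and DESeq2 called 8. The adjusted p in that DESeq2 fit was 0.00126 for Prm1 and 0.000259 for Tnp1, the transition protein that precedes the protamines. They summed to 1851, 1432 and 2394 CPM in WT and 959, 1036 and 1939 CPM in MUT. MUT 1 and MUT 2 were lowest and WT 3 was highest, as for the members, but MUT 3 lay above WT 1 and WT 2 in both sums while WT 1 and WT 2 changed places. Prm1, the protamine that packs sperm chromatin, had 5491, 4279 and 7281 counts in WT and 2598, 3147 and 5302 counts in MUT. Its log2 fold change was -0.62 (SE 0.26, adjusted p = 0.998 in edgeR). How far transcripts of other cells in the sorted fraction account for the class II values was not tested.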

How the data were processed

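RNA from sorted cells of 6 mice was sequenced from polyA libraries. The authors aligned reads with STAR to GRCm38.p6 and deposited raw counts per gene from featureCounts 1.6.2, on read pairs, with the GENCODE vM17 annotation plus tdTomato, per the file headers. Strand was not used although the kit marks it. No sample was pooled or left out. Counts of the 53657 gene names were tested with edgeR 4.0.16 (filterByExpr, TMM, quasi-likelihood F-test, Benjamini-Hochberg over all 19656 tested genes, false discovery rate 0.1), with genotype as the only term. CPM used TMM-scaled libraries, and RPKM was computed from them and the exon length in the files. DESeq2 1.42.0, limma 3.58.1 (voom), other filters and scalings, each sample left out, and the replicate number as a block were alternatives. Over 10583 genes above 10 CPM, same-numbered samples deviated together from their group means (r = 0.304, 0.156 and 0.395 in pairs 1 to 3), so the numbers were taken to pair the samples. This pairing comes from the data, not from a stated litter. Exact permutation tests were two-sided. Motifs were sought in RefSeq promoter windows (GRCm38.p6) with Python 3.11.15, and exon overlaps in GENCODE vM21, of the same build. Scripts were tested on simulated data. Limits at 0 counts, taken as 3 counts, cover counting error only. Intervals of fold changes came from the edgeR fits and include the spread between samples that each fit estimated. Members and gene lists were chosen with earlier results of these data known. Named were all members, the genes of the pathway lists with an unadjusted p under 0.05 or no overlap between groups, markers by their sums and the 10 genes most like the members, with further examples chosen after their values were seen. Some genes of the lists are not reported here.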

Additional observations from a re-analysis of the deposited data

How the results depend on the processing

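All 91 alternative fold changes of the 7 members were below 0, and 87 of them kept their side of the threshold. The other 4 were Cd74, H2-Aa, H2-Ab1 and H2-Eb1 in DESeq2 with the replicate block, which called 4 members where each of the other fits called 0. Without both samples of replicate 1 or of replicate 2, a choice added after seeing the data, that count was 0, and without replicate 3 it was 3. The count of all genes called was 2 in the genotype-only edgeR fit (547 had an unadjusted p under 0.05), 1 at a false discovery rate of 0.05, 9 in DESeq2, 4 in limma voom, 5 without a filter and 0 with at least 10 counts in every sample. Under the replicate block this count rose to 13 (edgeR) or 55 (DESeq2), and with each sample left out in turn it ran from 0 to 6. The summed level of the members in MUT over WT ran from 0.557 (without MUT 3) to 0.831 (without WT 3), and the Cd74 log2 fold change from -0.87 (without MUT 3) to -0.31 (without WT 3). Ciita ran from -0.67 to -0.10. Where a group keeps 2 samples, they are assumed to vary like the rest. The cause of these shifts was not tested. With 3 samples a group, all 7 intervals of the genotype-only fit include 0, while 6 of the 7 with the replicate block lie below it before adjustment. The limit that depth sets on single members was not tested.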
